A study of Homo sapiens with 9 samples.

Results

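The comparison described here takes the 6 Kasumi-1 knockdown libraries of the study as 1 group and sets them against its 3 control shRNA libraries. Kasumi-1 is a human acute myeloid leukaemia cell line with the t(8;21) translocation, which fuses RUNX1 (AML1) to RUNX1T1 (ETO). A gene is a member when its level in all 6 knockdown libraries lies above, or in all 6 lies below, its level in all 3 controls, with counts scaled by TMM factors to CPM, the counts expected in a library of standard size. Of 59648 genes in the count files, 14741 were expressed well enough to be tested, and 951 of these were members, 440 higher and 511 lower with knockdown. Members are therefore 6.45% of the genes tested, 2.98% higher and 3.47% lower.

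Every library comes from cells transduced with a lentivirus that carries an shRNA. Puromycin at 1 µg/mL was added after 48 h, selection lasted a further 48 h, and the label of each sample reads day 4. The knockdown group holds 3 libraries with an shRNA against the AML1-ETO fusion (AE), labelled 1 to 3, and 3 with an shRNA against LYL1, labelled 538, 540 and 542. The controls, labelled 1 to 3, carry a control shRNA, so they share the virus, the selection and the day with the knockdowns. The sample labels do not say if the AE, the LYL1 or the control numbers name different shRNAs, nor if a group's libraries are separate cultures. Where a number names its own shRNA, that shRNA has 1 library. The p-values therefore cover the spread among these 9 samples alone, which may be technical. Both knockdowns are compared with the same 3 controls, and a shift in the knockdown libraries cannot be told apart from an opposite shift in the controls.

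The AE fusion keeps the DNA-binding Runt domain of RUNX1 and joins it to ETO, which binds corepressors. It works within a complex of haematopoietic transcription factors and cofactors that includes E proteins such as TCF3 and TCF12, and LYL1, a basic helix-loop-helix factor that pairs with E proteins. The Runt domain reads RUNX motifs and helix-loop-helix pairs read E-boxes, and the complex can both repress and activate its targets in leukaemic blasts. The question put to the pooled comparison is which genes shift in one direction when either of 2 partners of that complex is reduced.

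In the pooled test of edgeR 5 genes passed, or 0.0339% of the genes tested. HSD17B10, DYNLRB1, TMED4 and LMLN rose (0.0271%) and TRH fell (0.00678%). HSD17B10 encodes a mitochondrial dehydrogenase of isoleucine and fatty acid breakdown that is also a subunit of mitochondrial RNase P. DYNLRB1 is a roadblock light chain of the motor dynein, TMED4 is a p24 cargo receptor of the early secretory pathway, LMLN is a leishmanolysin-like metallopeptidase, and TRH is the precursor of thyrotropin-releasing hormone.

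The 250 bases upstream of the annotated start are shown for 4 of these genes, as they are the genes on which the comparison turns and the partners reduced here bind RUNX and E-box motifs. The sequences are those of RefSeq (GRCh38.p14), which is not the build of the count files, and HSD17B10 and DYNLRB1 have 2 starts each in that table, of which 1 is shown. Each is written 5′ to 3′ along the gene's own strand, and capitals mark every match to the RUNX words TGTGGT or TGCGGT or to the E-box CANNTG, searched on both strands. No marked words overlap. The windows are chrX:53434377-53434626 on the minus strand for HSD17B10, and chr20:34515352-34515601, chr3:197959967-197960216 and chr3:129974470-129974719 on the plus strand for DYNLRB1, LMLN and TRH.
HSD17B10: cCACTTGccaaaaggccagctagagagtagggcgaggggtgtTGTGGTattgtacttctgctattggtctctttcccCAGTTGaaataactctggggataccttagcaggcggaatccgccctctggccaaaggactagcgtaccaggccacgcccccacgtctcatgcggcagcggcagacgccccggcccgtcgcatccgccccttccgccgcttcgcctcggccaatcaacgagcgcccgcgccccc
DYNLRB1: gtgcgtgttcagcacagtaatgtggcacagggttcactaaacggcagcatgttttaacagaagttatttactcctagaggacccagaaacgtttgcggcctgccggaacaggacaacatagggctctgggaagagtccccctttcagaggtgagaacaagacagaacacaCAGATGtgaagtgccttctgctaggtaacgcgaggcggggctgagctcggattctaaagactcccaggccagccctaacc
LMLN: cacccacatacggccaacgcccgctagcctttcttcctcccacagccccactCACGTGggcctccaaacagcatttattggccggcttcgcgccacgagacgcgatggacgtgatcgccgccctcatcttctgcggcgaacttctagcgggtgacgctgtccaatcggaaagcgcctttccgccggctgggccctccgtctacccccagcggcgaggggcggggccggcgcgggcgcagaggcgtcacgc
TRH: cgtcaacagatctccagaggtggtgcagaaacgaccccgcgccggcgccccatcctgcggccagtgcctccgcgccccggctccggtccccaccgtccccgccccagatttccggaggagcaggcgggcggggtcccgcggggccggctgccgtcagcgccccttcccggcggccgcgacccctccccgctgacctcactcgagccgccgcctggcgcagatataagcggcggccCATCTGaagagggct
The HSD17B10 window holds 1 RUNX word, TGTGGT, which begins 208 bases before the start, and 2 E-boxes. The other windows hold 1 E-box each, CAGATG for DYNLRB1, CACGTG for LMLN and CATCTG for TRH, and the E-box of TRH begins 15 bases before the start. A RUNX word occurs in 16.1% and an E-box in 62.2% of the 27305 promoter windows of that length in the table, so a match describes the letters and is no evidence of a bound site.

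Library totals ranged from 20103275 to 28039518 counts. The biological coefficient of variation was 7.57% among the controls, 31.5% among the AE, 20.9% among the LYL1 and 36.3% among all 6 knockdown libraries. AE library 3 stood apart, with a scaling factor of 0.914 against 0.998 to 1.04 in the others, and with 11.6% of its counts in ribosomal protein genes named RPL or RPS with a number and 1.21% in mitochondrial rRNA. The mean share of the ribosomal protein genes was 5.24% in the controls and 7.18% with knockdown, and that of mitochondrial rRNA 0.521% and 0.707%. In the exact two-sided permutation test over all 84 regroupings, these 2 shares and those of mitochondrial mRNA and of the 100 most abundant genes gave p = 0.274, 0.274, 0.321 and 0.357, each 0.357 after adjustment over the 4, where the smallest p possible is 0.0119. Blast markers were at 13280 to 35390 CPM in sum in every library, while erythroid, megakaryocyte and fibroblast or epithelial marker sums did not pass 12.01, 6.48 and 2.64 CPM. Lymphoid markers summed to 14.2 to 19.4 CPM in the controls, 9.26 to 43.2 CPM with AE and 10.25 to 22.0 CPM with LYL1 shRNA. Mast cell and basophil markers, which include the blast gene KIT, summed to 1170 to 1239, 465.6 to 1302 and 837 to 1452 CPM in the same order, and the part of either list in the results was not tested.

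The targets of the shRNAs were not members. RUNX1T1, which encodes ETO, was found at 52.6%, 63.0% and 40.5% of the control mean in AE libraries 1, 2 and 3. It lay at 84.6%, 92.8% and 121% in LYL1 libraries 538, 540 and 542. LYL1 lay at 49.5%, 60.5% and 27.0% in those libraries and at 161%, 123% and 106% in the AE libraries. Each target was thus low in its own knockdown and overlapped or exceeded the controls in the other. Neither passed the pooled test (edgeR adjusted p = 0.625 for RUNX1T1 and 0.881 for LYL1). Against the same controls RUNX1T1 passed with AE shRNA (log2 -0.94, edgeR adjusted p = 0.00778). LYL1 did not pass with LYL1 shRNA (log2 -1.13, edgeR adjusted p = 0.526). RUNX1, whose counts add reads of the fusion and of the normal allele, gave an adjusted p of 0.752 in edgeR.

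HSD17B10 had the largest distance between the groups relative to its spread. Its level was 12.2, 13.5 and 14.6 CPM in the controls. With AE shRNA it was 86.6, 96.5 and 85.4 CPM, and in LYL1 libraries 538, 540 and 542 it was 62.1, 53.8 and 55.8 CPM. The lowest knockdown library was 3.69-fold above the highest control, and the AE and LYL1 libraries did not overlap each other. The pooled rise was 5.47-fold (log2 fold change 2.45, SE 0.23, edgeR adjusted p = 0.00645). Against the same controls the AE knockdown gave 6.67-fold (adjusted p = 7.28e-06) and the LYL1 knockdown 4.26-fold (adjusted p = 0.000107). The difference between the knockdowns, 0.65 on the log2 scale with AE higher, passed its own test in edgeR (adjusted p = 0.0085).

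DYNLRB1 was a low-abundance gene in the controls, at 2.18, 2.94 and 1.64 CPM. It reached 11.6, 8.52 and 13.5 CPM in the AE and 8.78, 7.85 and 8.72 CPM in the LYL1 libraries. No knockdown library fell below 2.67 times the highest control, and the pooled rise was 4.34-fold (log2 2.12, SE 0.27, edgeR adjusted p = 0.0386). TMED4 lay at 52.5, 51.1 and 47.8 CPM in the controls, 104, 114 and 144 CPM in the AE and 93.3, 108 and 114 CPM in the LYL1 libraries. Its rise was the smallest of the 4, 2.24-fold, with a narrow error (log2 1.16, SE 0.15, edgeR adjusted p = 0.0386). LMLN went from 3.96, 3.80 and 4.28 CPM to 11.4, 13.5 and 9.81 CPM with AE and 8.90, 11.0 and 10.5 CPM with LYL1 shRNA (2.71-fold, log2 1.44, SE 0.19, edgeR adjusted p = 0.0386). For these 3 genes the AE and LYL1 libraries overlapped, and the difference between the knockdowns did not pass the test (edgeR adjusted p = 0.226 for DYNLRB1, 0.361 for TMED4 and 0.457 for LMLN).

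TRH was the single gene that fell. Its 3 controls were almost equal, at 463, 464 and 464 CPM. It lay at 178, 137 and 201 CPM with AE and at 80.5, 134 and 160 CPM with LYL1 shRNA. All 6 knockdown libraries were therefore at least 2.30-fold below the controls, and the AE and LYL1 ranges overlapped. The pooled fall was 3.12-fold (log2 fold change -1.64, SE 0.23, edgeR adjusted p = 0.0493). The log2 fold change was -1.43 with AE (adjusted p = 0.00422) and -1.89 with LYL1 shRNA (adjusted p = 0.0408), and their difference gave an edgeR adjusted p of 0.167. HSD17B10 and TRH were also the 2 genes called with LYL1 shRNA alone (0.0136% of genes tested).

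**Figure D1:**
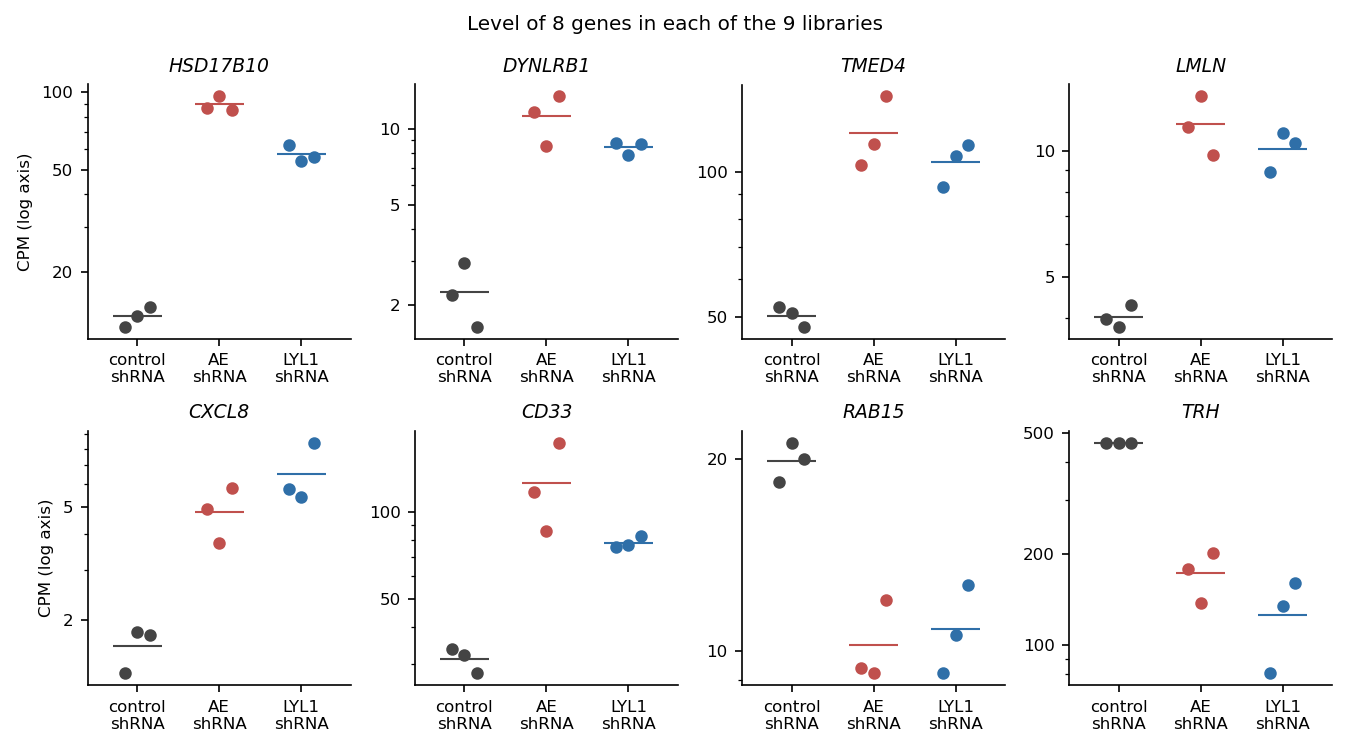
Level in CPM (log axis) of 8 genes in each of the 9 libraries, with points for libraries and horizontal lines for group means (3 libraries each). All 6 knockdown points lie on one side of the 3 controls in every panel: above for HSD17B10, DYNLRB1, TMED4, LMLN, CXCL8 and CD33, below for RAB15 and TRH.

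These 5 calls rest on all 3 control libraries. Without any 1 control none of the 5 was called, with an edgeR adjusted p of 0.104 to 0.137 for HSD17B10, the lowest of the 5 in each of these fits, and no other gene was called in its place. HSD17B10 was called in 16 of 19 alternative settings, TMED4 in 11, DYNLRB1 and LMLN in 10 and TRH in 8, with the same sign in all. In the reference annotation (GRCh38) no gene that was tested here overlaps any of the 5. Genes that were not tested do: AC233728.1 on the same strand as HSD17B10 and RF00019 on the strand opposite DYNLRB1. LMLN is overlapped by RNU6-621P on its own strand and LMLN-AS1 on the other. The strand setting of the counting is not given in the sources used here, and an effect of these overlaps on the counts was not tested.

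Genes related by function to the 5 called genes were compared next. HSD17B10 was 1 of 20 mitochondrial RNA processing genes and the only member among them (5% higher, against 2.98% of all genes). Its RNase P partners TRMT10C and PRORP, named for that role with their values known, lay at log2 fold changes of -0.06 and 0.23 (edgeR adjusted p = 0.862 and 0.685). Of 23 tested genes of isoleucine and branched-chain amino acid breakdown, 3 were members, all higher (13% against 2.98% of all genes): HSD17B10, the mitochondrial trifunctional subunit HADHB and the methylmalonyl-CoA mutase MMUT. The last pair differed from the controls by 0.36 and 0.37 on the log2 scale, and neither passed the pooled test (edgeR adjusted p = 0.597 each). The nearest libraries of HADHB were 1.01-fold apart, and its groups overlapped under another scaling.

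Of 24 dynein and dynactin genes, DYNLRB1 and the light chain DYNLT1 were higher, and the dynactin subunit DCTN1 and the heavy chain DYNC1H1 lower. Each direction held 8.33% of the list, against 2.98% higher and 3.47% lower over all genes tested. DCTN1 lay at 206, 207 and 208 CPM in the controls. In the knockdown libraries it lay between 101 and 184 CPM, which placed it lower with a log2 fold change of -0.47 (edgeR adjusted p = 0.597). Of 30 TMED cargo receptors and COP coat genes, TMED4 and the coatomer subunit COPB1 were higher (6.67%) and TMED8 lower (3.33%). TMED8 was lower only by 1.02-fold at the nearest libraries and not under every scaling. The paralogs TMED2, TMED9 and TMED10 were no members, with log2 fold changes of -0.03, 0.22 and 0.04. TRH was the only member among 6 tested genes of neuropeptide precursors and processing (16.7% lower). The peptide-processing enzymes PAM and FURIN, named with values known, lay at 0.15 and 0.40 (edgeR adjusted p = 0.766 and 0.6).

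The 15 higher members with the largest shared change, which is the smaller of the AE and LYL1 changes, held the 4 called genes and 11 that did not pass the pooled test. CXCL8, the neutrophil chemokine interleukin-8, lay at 1.29, 1.81 and 1.76 CPM in the controls. It lay at 4.90, 3.73 and 5.82 CPM with AE and at 5.79, 5.41 and 8.42 CPM with LYL1 shRNA (log2 fold change 1.80, SE 0.29, edgeR adjusted p = 0.147). CD33, a sialic-acid-binding surface receptor of myeloid cells, lay at 33.6, 32.2 and 27.8 CPM in the controls, 117, 85.9 and 173 CPM with AE and 75.7, 76.9 and 82.3 CPM with LYL1 shRNA (log2 1.71, SE 0.28, edgeR adjusted p = 0.147). Both genes were separated from the controls by more than 2-fold at the nearest libraries, 2.06-fold for CXCL8 and 2.25-fold for CD33. CXCL8 was the only member among 13 NF-kB targets (7.69% higher, against 2.98% of all genes).

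In the other 9 the AE libraries were uneven. CSF1R, the receptor for macrophage colony-stimulating factor, lay at 2.52 to 3.05 CPM in the controls. It lay at 15.8, 11.9 and 56.3 CPM with AE and at 3.68, 15.2 and 6.93 CPM with LYL1 shRNA. IL6R, the interleukin-6 receptor, lay at 0.414 to 0.485 CPM in the controls, at 19.1, 3.91 and 64.4 CPM with AE and at 0.575, 1.62 and 0.897 CPM with LYL1 shRNA. AE library 3 was the highest in both genes. The same library was highest for ANXA1 (annexin A1), RASGRP3 (a RAS guanine nucleotide exchange factor), TMEM71, SASH3 (a lymphocyte signalling adaptor), ALOX5AP (which serves leukotriene synthesis), the pseudogene RPS3AP5 and the cilium gene CFAP44. Pooled log2 fold changes of these 7 ranged from 1.31 for CFAP44 to 5.36 for ANXA1, all with an edgeR adjusted p of 0.597. ANXA1 and RASGRP3 had 2 to 4 and 5 to 16 counts per control library, and reads of RPS3AP5 may be shared with near-identical gene copies.

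The 15 lower members with the largest shared change began with TRH. RAB15, a small GTPase of endosomal recycling, had the next smallest p. It lay at 18.4, 21.2 and 20.01 CPM in the controls, 9.40, 9.22 and 12.02 CPM with AE and 9.24, 10.6 and 12.7 CPM with LYL1 shRNA. Its groups were 1.45-fold apart at the nearest libraries and its change was alike in both knockdowns (log2 -0.96 and -0.88), yet the pooled test was not passed (log2 -0.92, SE 0.16, edgeR adjusted p = 0.166). EVPL, the cornified envelope protein envoplakin, lay at 191 to 201 CPM in the controls, at 62.9, 50.5 and 21.4 CPM with AE and at 98.2, 115 and 81.2 CPM with LYL1 shRNA. ITGA9, an integrin alpha subunit, lay at 103 to 111 CPM, at 10.5, 15.1 and 23.3 CPM and at 77.6, 57.3 and 39.2 CPM in the same order. In both genes every AE library was below every LYL1 library.

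The other lower members of the 15 encode MCAM (CD146), the GPI-anchored CD109, ATP1B1 (a sodium pump beta subunit), the receptor kinase TYRO3, the neurexin NRXN2 and the Nogo receptor RTN4R. They also include SHISA2, FAM180B, the non-muscle myosin MYH10, the mast cell tryptase TPSB2 and AL590226.1. Pooled log2 fold changes ran from -1.99 for MCAM to -1.02 for RTN4R, with an edgeR adjusted p of 0.597 in each of these 11. TPSB2 lay at 4.53 to 6.19 CPM in the controls, 0.458 to 0.673 CPM with AE and 2.01 to 3.69 CPM with LYL1 shRNA, and its reads can be shared with near-identical tryptase genes. TIE1, an endothelial and haematopoietic receptor kinase below the expression minimum of the naming rule and named after its values were seen, lay at 2.48 to 2.87 CPM in the controls and 0.387 to 1.25 CPM with knockdown (log2 -1.99, SE 0.33, edgeR adjusted p = 0.147).

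**Figure D2:**
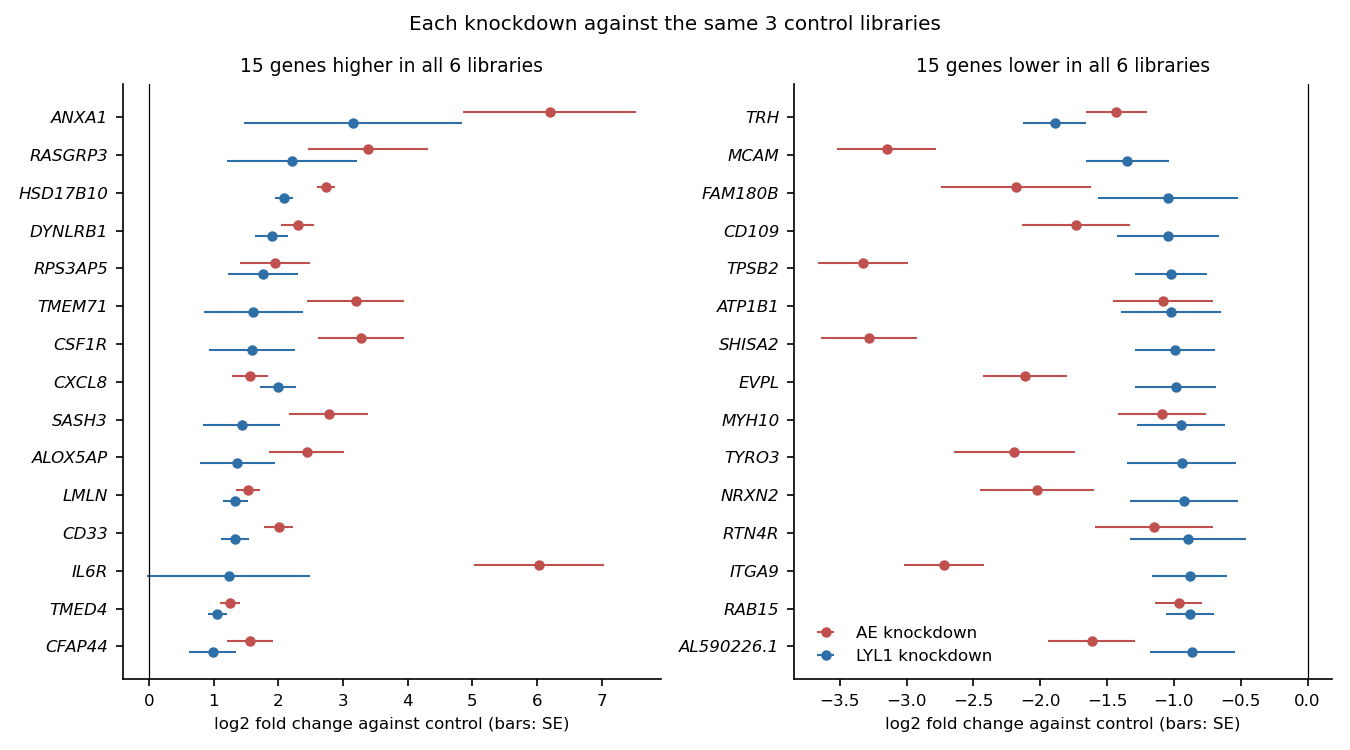
Log2 fold change against control of the 15 higher and 15 lower members with the largest shared change, with AE knockdown in red and LYL1 knockdown in blue; bars are standard errors of the edgeR fit and both knockdowns use the same 3 controls. RAB15 has close points (-0.96 and -0.88) with short bars, while IL6R lies far to the right with AE and at 1.23 with LYL1 knockdown, and ANXA1 is at 6.19 and 3.15 with long bars.

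Among lists of at least 10 tested genes, that of the S phase had the largest share of lower members. Of 30 S phase genes 8 were lower members and none a higher member, 26.7% against 3.47% of all genes tested, and their median log2 fold change was -0.32 against 0.04 over all genes. No S phase gene passed the pooled test. The 8 were the helicase subunits MCM2, MCM3 and MCM6, the polymerase subunit POLE, the flap nuclease FEN1, the histone chaperone subunit CHAF1A, cyclin E1 (CCNE1) and UHRF1, which maintains DNA methylation. FEN1, POLE and CCNE1 are named by rule and the other 5 after their values were seen. FEN1 lay at 67.8%, 79.5% and 45.0% of the control mean in AE libraries 1, 2 and 3. It lay at 74.1%, 70.9% and 78.7% in LYL1 libraries 538, 540 and 542 (pooled log2 -0.53, edgeR adjusted p = 0.597). AE library 3 was the lowest library for all 8 genes, from 23.7% of the control mean for UHRF1 to 49.0% for MCM3. Without it the same count, 8, was found, with a median of -0.24, while the number of lower members over all genes went from 511 to 615. MCM3 and MCM6 lay close to the controls in AE library 2, at 98.6% and 96.5%. Under upper-quartile scaling or library size alone, 6 of the 30 were lower.

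Of 29 G2 and M phase genes 4 were lower members (13.8% against 3.47% of all genes tested) and none higher. These were the proliferation antigen MKI67, topoisomerase TOP2A, the spindle factor TPX2 and the kinetochore protein NDC80. MKI67 lay at 405 to 427 CPM in the controls, 127 to 282 CPM with AE and 325 to 346 CPM with LYL1 shRNA (log2 -0.61, edgeR adjusted p = 0.597). All LYL1 libraries thus lay between the AE libraries and the controls. The median of the list was -0.17. Under upper-quartile scaling or library size alone 3 of the 29 were lower, and 7 were lower without AE library 2. Omitting that library took the number of lower members over all genes tested from 511 to 599.

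In the unfolded protein and amino acid response list 5 of 30 genes were lower members (16.7%) and none a higher one, with a median log2 fold change of -0.42. PHGDH and PSAT1 catalyse the opening steps of serine synthesis from glycolysis and SHMT2 turns serine into glycine in mitochondria. SHMT2 lay at 260, 271 and 252 CPM in the controls, 179, 188 and 134 CPM with AE and 207, 182 and 152 CPM with LYL1 shRNA (log2 -0.58, SE 0.15, edgeR adjusted p = 0.597). PHGDH lay at 260 to 286 CPM, 68.5 to 164 CPM and 112 to 227 CPM in the same order, and PSAT1 at 211 to 226 CPM, 37.0 to 124 CPM and 86.7 to 185 CPM. The lowest LYL1 library for all 3 was 542, which also had the lowest LYL1 level. Library 538 had less LYL1 than library 540 (49.5% against 60.5% of the control mean), yet more of all 3 genes. A link to the LYL1 level was not tested. PDIA4, a disulfide isomerase of the endoplasmic reticulum, and VLDLR, a lipoprotein receptor, were the remaining members. PSPH, the last enzyme of serine synthesis, and ASNS, asparagine synthetase, were no members, and in each LYL1 library 538 was above the highest control. PSAT1, PDIA4, PSPH and ASNS were named after their values were seen. The count of 5 was the same under the other 3 scalings and without AE library 3, where the median was -0.29. It was 15, with 1 gene higher, without LYL1 library 538, 8 without control 3 and 7 without LYL1 library 542. Lower members over all genes tested then numbered 848, 918 and 991 in that order, against 511 with all libraries.

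**Figure D3:**
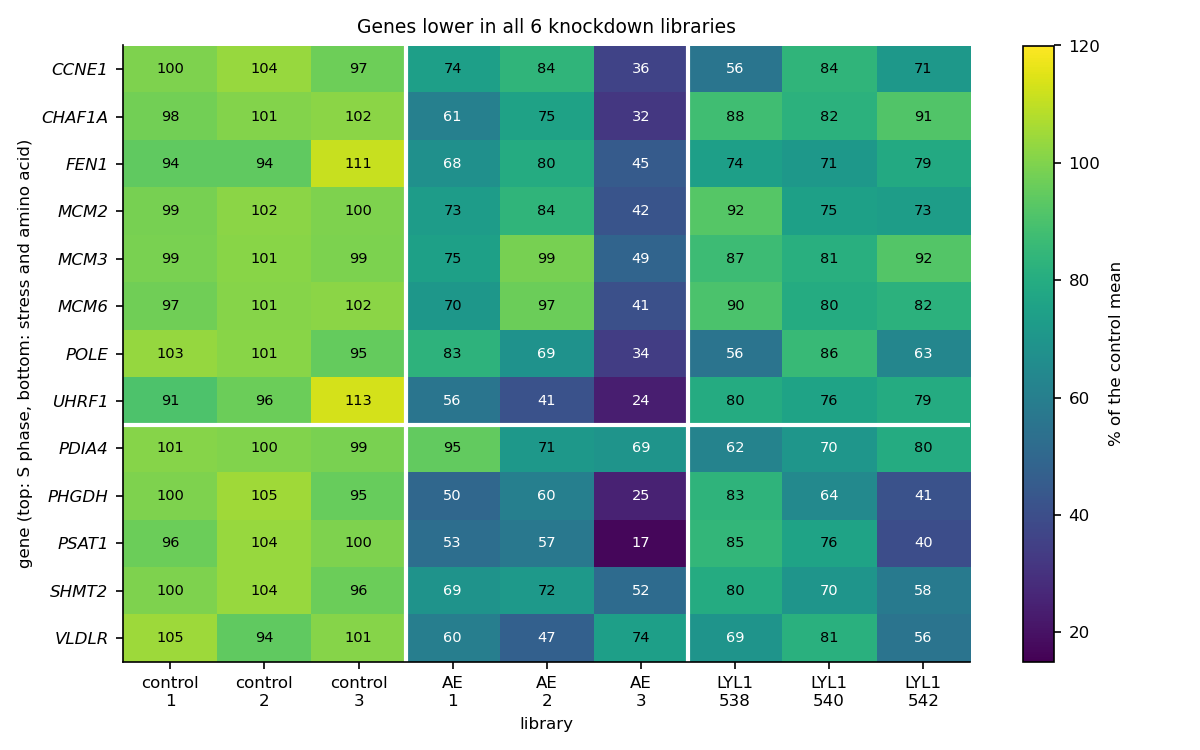
Level of the 8 S phase and 5 unfolded protein and amino acid response genes that were lower in all 6 knockdown libraries, as % of the mean of the 3 controls in each of the 9 libraries. AE library 3 is the darkest column for all 8 S phase genes, and LYL1 library 542 is the darkest LYL1 column for PHGDH, PSAT1, SHMT2 and VLDLR.

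Targets of p53 split by gene. Of 22 tested, the death receptor FAS, the BH3 protein BBC3 (PUMA) and the p53 ligase MDM2 were higher members (13.6% against 2.98% of all genes). The translesion polymerase POLH was a lower one (4.55% against 3.47%), and the list median was 0.04. FAS lay at 0.607, 0.678 and 0.755 CPM in the controls, 2.64, 1.69 and 2.596 CPM with AE and 1.92, 1.43 and 1.45 CPM with LYL1 shRNA (log2 1.52, SE 0.32, edgeR adjusted p = 0.425). BBC3 was at 0.941 to 1.09 CPM in the controls and 1.55 to 2.45 CPM with knockdown. The cell cycle inhibitor CDKN1A, the best known target of p53 and named after its values were seen, was no member: it lay at 1.55 to 2.45 CPM in the controls, 0 to 0.493 CPM with AE and 2.204 to 7.83 CPM with LYL1 shRNA. Under library size alone the higher members were 2 of the 22.

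Genes tied to the fusion by earlier work were members in both directions. Of 9 tested genes described as raised by AE, TRH, the junction protein JUP (plakoglobin) and the phosphatase UBASH3B were lower members, 33.3% against 3.47% of all genes, and none was higher. JUP lay at 498 to 609 CPM in the controls, 129 to 294 CPM with AE and 414 to 471 CPM with LYL1 shRNA. POU4F1 and CCND2, of the same list and named with values known, lay below the controls in all AE libraries but not with LYL1 shRNA. Of 11 genes described as repressed by AE, CSF1R and CEBPA were higher members, 18.2% against 2.98% of all genes. The median log2 fold change of the 11 was 1.14 with AE and -0.08 with LYL1 shRNA. With AE shRNA alone 7 of them were called higher and 1 lower, where 21.8% of all genes tested were called. CEBPA, a transcription factor of granulocyte differentiation, lay at 1.62, 1.43 and 1.259 CPM in the controls. It lay at 3.11, 2.43 and 1.97 CPM with AE and at 2.53, 2.86 and 2.29 CPM with LYL1 shRNA, so that its change was alike in both (log2 0.81 and 0.84), and the pooled adjusted p was 0.597 in edgeR. TCF12, an E protein, was the only member among 12 genes of the AE transcription factor complex (8.33% lower, against 3.47% of all genes). It was lower by 0.22 on the log2 scale.

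None of 13 primary granule and 7 late granulocyte genes tested was a member, although 7 and 5 of them rose, and 1 late granulocyte gene fell, with AE shRNA alone, where 11.4% of all genes rose. Of 5 monocyte and macrophage genes tested CSF1R was the only member (20% higher, against 2.98% of all genes). The summed level of that list over all 14 of its genes was 33.6 to 38.5 CPM in the controls, 58.9 to 346 CPM with AE and 29.7 to 52.6 CPM with LYL1 shRNA, with FCGR3A, AIF1 and KLF4 among the genes at 0 in all libraries. Whether that level bears on the members was not tested. CEBPE, a factor of granulocyte maturation named with values known, lay at 59.7 to 67.8 CPM in the controls, 145 to 461 CPM with AE and 46.5 to 104 CPM with LYL1 shRNA, so that LYL1 libraries lay on both sides of the controls. Without LYL1 library 540, 3 primary granule genes were higher members. Without LYL1 library 542, the late granulocyte list held 2 higher members and 1 lower and the monocyte list 3 higher and 1 lower. Over all genes tested, higher members numbered 613 without library 540 and 928 without library 542, against 440 with all libraries. Lower members numbered 991 without library 542, against 511. Nor was any of 39 cytosolic ribosomal protein genes a member, although 32 of them rose with AE shRNA alone. Their median log2 fold change was 0.84 with AE and -0.03 with LYL1 shRNA. LYL1 library 542 had the lowest share of RPL and RPS counts (4.48%). Without that library 18 of the 39 were higher members, and the rest still overlapped the controls.

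Among the mitochondrial lists, 3 of 47 ribosomal protein genes (MRPS11, MRPS15, MRPS33) and 3 of 43 nuclear respiratory chain genes (SDHC, NDUFB5, COX7B) were higher members, 6.38% and 6.98% against 2.98% of all genes. Their pooled log2 fold changes were between 0.26 and 0.66. None of the 13 mRNAs of mitochondrial DNA was a member. The small mitochondrial rRNA MT-RNR1 was one, at 309 to 372 CPM in the controls, 443 to 1374 CPM with AE and 375 to 556 CPM with LYL1 shRNA. Its nearest libraries were 1.01-fold apart. MRPS15 and COX7B lost their side under another scaling. Without LYL1 library 542 the counts were 6 mitochondrial ribosomal protein and 7 respiratory chain genes, and the latter was also 7 without control 3. Over all genes tested, higher members numbered 928 without LYL1 library 542 and 770 without control 3, against 440 with all libraries.

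Lists with few members in either direction are set here beside the 2.98% higher and 3.47% lower of all genes tested. Of 22 AP-1 and immediate early genes, KLF6 was higher (4.55%) and FOSL2 and ETV5 lower (9.09%). Of 30 MYC and ribosome biogenesis genes, CAD and PPAN were lower (6.67%). XPO5 was lower of 13 small RNA machinery genes (7.69%), MVD of 25 sterol synthesis genes (4%) and ETV6 of 12 stem and progenitor genes (8.33%). ETV5, a factor induced by RAS-MAPK signalling, showed the largest change of these, at 55.4 to 64.0 CPM in the controls, 4.42 to 22.0 CPM with AE and 30.6 to 39.1 CPM with LYL1 shRNA. CAD, XPO5, MVD and ETV6 were members only under some of the scalings. No heat shock gene of 13 and no interferon-stimulated gene of 20 was a member. Of 9 blast markers, CD33 and the sialomucin SPN (CD43) were higher, 22.2% against 2.98% of all genes tested. KIT, CD34, MPO and PTPRC overlapped the controls.

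**Figure D4:**
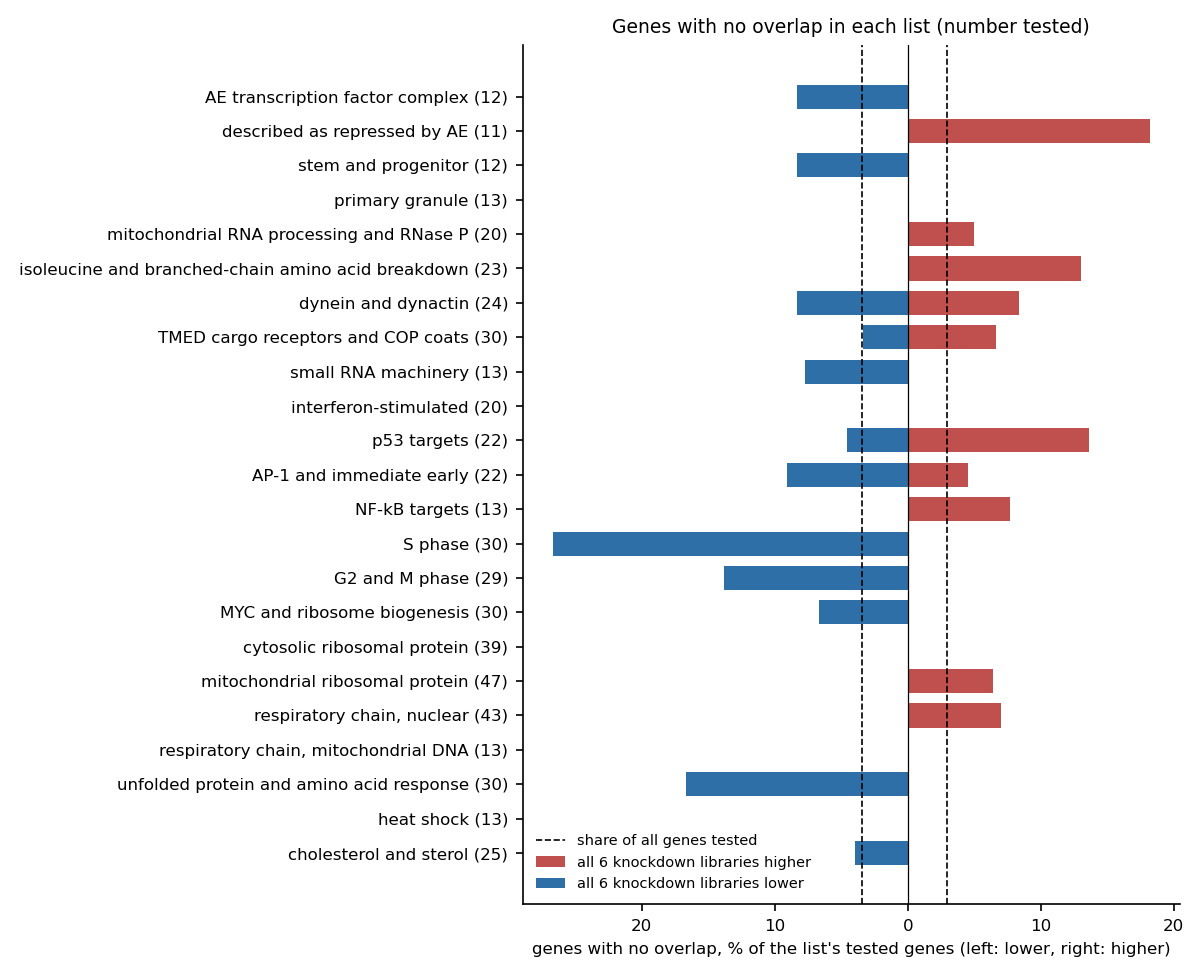
Share of each list's tested genes (number in brackets) that were members, in % (right and red: higher with knockdown; left and blue: lower), for the lists with at least 10 tested genes. Dashed lines mark the shares over all genes tested, 2.98% higher and 3.47% lower. The longest bar is that of the S phase genes, at 26.7% lower.

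Members differed in how the AE and LYL1 knockdowns shared the change. The median log2 fold change of higher members was 0.70 with AE and 0.38 with LYL1 shRNA, and that of lower members -0.67 and -0.32, against 0.05 and 0.01 over all genes tested. The AE change was the larger in 825 members (86.8%), as it was in 75.8% of all genes tested. With AE shRNA alone edgeR called 567 members, where 21.8% of all genes tested were called; that comparison shares its libraries with the choice of members and nothing is read from it. The difference between the knockdowns passed the test in 170 members (17.9%), near the 20.4% of all genes tested. Of these 170, the AE change was the larger in 68 higher and 99 lower ones, and the LYL1 change in 2 higher and 1 lower. The choice of members used the values of the same knockdown libraries, so these counts only describe the members.

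By the smallest p of that difference, CERCAM, AC096667.1, COMMD6 and RGS14 stood farther above the controls with AE than with LYL1 shRNA. COMMD6, a protein of the COMM domain family, lay at 36.5 to 36.6 CPM in the controls, 73.5 to 79.6 CPM with AE and 45.1 to 49.0 CPM with LYL1 shRNA. The 3 groups did not overlap, and the difference between the knockdowns was 0.69 on the log2 scale (edgeR adjusted p = 0.00457). VWA1, FOSL2, MYRF, IER5L and FAM171A1 stood farther below with AE. FOSL2, an AP-1 subunit, lay at 82.5 to 94.5 CPM in the controls, 25.8 to 38.7 CPM with AE and 74.2 to 79.5 CPM with LYL1 shRNA. FAM171A1 kept its side under some scalings only.

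Most members were separated by little. The gap between the nearest knockdown and control libraries was at least 1.2-fold in 131 members, 70 higher and 61 lower, and at least 2-fold in 10. Both knockdowns changed by at least 2-fold in 63 members, 41 higher and 22 lower. Just inside the rule lay NEDD9, COX19 and MED13L, with nearest libraries at ratios of at most 1.0001, and just outside it TRRAP, XPO4 and RABGAP1. NEDD9 lay at 2.79 CPM in control 1 and at 2.79 CPM in LYL1 library 542. Membership also depended on the scaling: 766 genes, 379 higher and 387 lower, were members under all 4 scalings run.

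The sets of higher and lower members also differed in abundance and length. The rule compared the CPM values from which the mean level is taken, so these medians only describe the members. For lower members the median of the mean level was 5.48 on the log2 CPM scale, against 4.21 for higher members and 4.20 for all genes tested. The median longest annotated transcript was 4454 bases for lower members, 2782.5 bases for higher members and 3189 bases for all genes tested, with lengths found for at least 96.8% of each set. Protein-coding genes made up 92.1%, 83.2% and 80.2%.

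The pooled test counts the difference between the knockdowns as spread. The AE and LYL1 groups were also fitted apart and their mean was compared with the controls. There edgeR called 125 genes (0.848%), of which 65 were members. A call there need not be a shift shared by both knockdowns. RAB15 passed at log2 -0.96 with AE and -0.88 with LYL1 shRNA, and VWA1 passed at -3.67 and -0.46. The choice of members used the same libraries, so nothing is read from the 65.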

How the data were processed

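Per the labels, total RNA of 9 Kasumi-1 libraries was sequenced. The authors deposited raw read counts per gene symbol. The submitters' processing notes name build hg19, HISAT2 (2.2.0), featureCounts (2.0.1), fastp (0.20.1), SAMtools (1.7) and DESeq2 (1.26.0). The annotation and the strand setting are not given in the sources used here. In 6 files 5 gene names carried a suffix, which was removed.

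Counts were filtered (filterByExpr over the 3 groups), scaled by TMM and fitted with the robust quasi-likelihood test of edgeR 4.0.16 (R 4.3.3), 6 knockdown against 3 control libraries. Genes were called at a Benjamini-Hochberg adjusted p below 0.05 over 14741 genes. The prior count was 0.125. Standard errors are the log2 fold change divided by the square root of F, with a median of 0.24. A model of 3 groups gave each knockdown and their difference. No test was applied to non-overlap, whose direction the rule fixes.

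The rule named the targets, the called genes, 15 higher and 15 lower members at or above a mean log2 CPM of 1, up to 3 members per list and 5 per direction of difference. A few results are not reported here. Members, the 35 lists and the rule were chosen with earlier results of these data known. Alternatives were other scalings and filters, DESeq2 1.42.0, limma-voom (limma 3.58.1), omission of each library and a replicate block. The fit was tested on simulated counts.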

Additional observations from a re-analysis of the deposited data

Results flagged for a closer look

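Among 42 genes named by rule outside the lists, 21 differed between the AE and the LYL1 knockdown by the edgeR contrast of the 3-group model at an adjusted p below 0.05, where 20.4% of all genes tested did. The values that follow are log2 differences, AE minus LYL1 knockdown. The targets differed by -0.93 for RUNX1T1, -0.93 for RUNX1 and 1.51 for LYL1. Of the higher members, HSD17B10 differed by 0.65, CD33 by 0.68, COMMD6 by 0.69, CERCAM by 1.04, RGS14 by 1.91, the noncoding AC096667.1 by 2.84, ANXA1 by 3.04 and IL6R by 4.79. Of the lower members, EVPL differed by -1.13, FOSL2 by -1.29, IER5L by -1.58, MCAM by -1.80, ITGA9 by -1.84, FAM171A1 by -2.09, SHISA2 by -2.29, TPSB2 by -2.30, MYRF by -2.67 and VWA1 by -3.21. In each of these 18 members the AE group changed more than the LYL1 group. This need not hold for single libraries: ANXA1 lay at 2.01 CPM in AE library 2 and at 2.80 CPM in LYL1 library 538. Since 9 of them were named by the p of this difference, the count is no measure of how often members differ.

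In 3 genes 1 of the 6 knockdown libraries lay far from the others on the log2 CPM scale, by the gap to its neighbour over the whole range against a critical value of 0.625. AE library 3 was the highest for TMEM71 (0.675) and ALOX5AP (0.709) and the lowest for MYH10 (0.686). TMEM71 lay at 38.5 CPM there and at 3.98 to 8.32 CPM in the other knockdown libraries, ALOX5AP at 64.6 CPM and 10.8 to 18.2 CPM, and MYH10 at 1.78 CPM and 3.99 to 5.77 CPM. All 46 groups tested share these 6 libraries, and chance flags about 1 in 20 groups.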

How the results depend on the processing

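The count of 5 genes called was 5 with median-of-ratios factors or library size alone, 4 with upper-quartile factors or a strict filter and 5 at an adjusted p below 0.1. It was 9 without a filter, 33 in DESeq2, 1 in limma-voom (HSD17B10), 125 for the mean of the AE and LYL1 groups and 3 in edgeR's legacy test, an alternative chosen after seeing the data. Same-numbered control and AE libraries did not deviate together (correlations of 0.04, -0.01 and 0.01). This cannot settle if the numbers pair the samples, as the AE libraries varied far more than the controls (31.5% against 7.57%). With the number as a block in the model of the mean of both groups, 91 genes were called. Leaving out 1 library gave 0 to 6 calls: 0 in edgeR without any 1 control, where 476 to 548 genes had an unadjusted p below 0.05 (1200 with all libraries), 1 without AE library 1 or 2 or LYL1 540, 2 without LYL1 542 and 6 without AE library 3. The count of 951 genes with no overlap was 913 to 963 under other scalings, 131 with a gap of at least 1.2-fold and 1110 to 1919 without 1 library. The higher share of members was 46.3%, 41.9% with median-of-ratios factors, 55.9% with upper-quartile factors and 51.9% with library size alone. The 170 members that differed between the knockdowns became 140 to 288 without 1 library. Of 1519 values of 80 named genes, 1426 kept their side of the threshold, 53 crossed it to be called, 40 lost the call and none changed sign. The cause was not tested for any of these changes.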
